A study of Mus musculus with 16 samples.

Results

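Amino acids cross the membranes of mammalian cells through carriers of several solute carrier families, and 6 of those families make up the set described here: families 1, 3, 7, 36, 38 and 43. Every gene on the array whose symbol placed it in 1 of them was taken by name alone, with no use of its values. This gave 42 of 22180 genes, a set chosen with earlier results of these data known. There were 7 genes of family 1, 2 of family 3, 15 of family 7, 4 of family 36, 11 of family 38 and 3 of family 43. They were measured in the gonadal white fat of male C57BL/6 mice aged 3 to 4 months, sampled in the morning, in 8 fed samples (food freely available) and 8 samples taken after a fast of 16 hours. No allele, transgene or drug is named for either group. The question the design puts is which transcripts of white fat change when food is withdrawn, and here it is put to the carriers that bring amino acids into the cell, out of it and across the lysosomal membrane.

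The families work in different ways. Family 1 holds sodium-driven carriers of glutamate and aspartate and a pair of exchangers of small neutral amino acids. Family 3 holds heavy chains, single-pass proteins that carry no amino acid themselves but bring the light chains of family 7 to the plasma membrane, and each finished carrier is 1 heavy and 1 light chain joined by a disulfide bond. Family 7 also holds the cationic amino acid transporters, which need no heavy chain. Family 36 couples amino acid movement to protons, family 38 couples it to sodium and includes the classical systems A and N, and family 43 holds facilitative carriers. In white fat such carriers supply glutamine, alanine, serine and branched-chain amino acids, and 2 of the members, Slc7a10 and Slc36a2, are known as surface markers of white and of brown or beige adipocytes.

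The values are log2 expression values of Affymetrix probe sets, and a fold is the antilog of a log2 difference. A change is the mean of the fasted samples minus the mean of the fed samples, with its standard error (SE), and a gene was called changed where limma's moderated test, adjusted over all 22180 genes by the Benjamini-Hochberg method, gave a p under 0.05. A gene was taken as above the dim level where it exceeded log2 of 20, which is 4.32, in at least 8 of the 16 arrays. By that measure 26 members were above the dim level and 16 were not. Levels of different probe sets are not comparable with each other, so only changes are set side by side. The labels do not say that each sample was a separate mouse, so a p-value here speaks of the variation among these 16 samples and not necessarily among mice.

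Promoters are shown for the members that the results turn on: the light chain Slc7a8 and its heavy chain Slc3a2, which both rose, the light chain Slc7a10, which fell, the second heavy chain Slc3a1, and Slc7a11, a member at the dim level whose promoter matches 2 of the motifs searched. Sequences are from RefSeq, build GRCm38.p6, each running from 250 bases before an annotated start to 50 after it. They read 5′ to 3′ on the gene's own strand, and capitals mark motif matches. For Slc3a2, Slc7a10 and Slc7a11 that start lies inside the gene's RefSeq span, which is chr19:8706882-8723369, chr7:35186095-35201116 and chr3:50364936-50499087. Slc7a8 lies at chr14:54781837-54782136 on the minus strand, Slc3a2 at chr19:8713848-8714147 on the minus strand, Slc7a10 at chr7:35186135-35186434 on the plus strand, Slc3a1 at chr17:85028097-85028396 on the plus strand and Slc7a11 at chr3:50443564-50443863 on the minus strand.
Slc7a8: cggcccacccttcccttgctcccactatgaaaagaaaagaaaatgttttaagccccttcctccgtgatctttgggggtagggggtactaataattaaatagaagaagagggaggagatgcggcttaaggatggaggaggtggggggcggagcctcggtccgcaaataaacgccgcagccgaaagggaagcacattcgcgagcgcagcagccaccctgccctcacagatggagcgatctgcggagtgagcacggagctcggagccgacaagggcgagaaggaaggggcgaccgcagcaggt
Slc3a2: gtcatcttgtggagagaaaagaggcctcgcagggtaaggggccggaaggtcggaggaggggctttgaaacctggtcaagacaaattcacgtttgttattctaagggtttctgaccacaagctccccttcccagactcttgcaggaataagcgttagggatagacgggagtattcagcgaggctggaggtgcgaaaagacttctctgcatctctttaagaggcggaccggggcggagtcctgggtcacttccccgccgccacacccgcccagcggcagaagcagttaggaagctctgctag
Slc7a10: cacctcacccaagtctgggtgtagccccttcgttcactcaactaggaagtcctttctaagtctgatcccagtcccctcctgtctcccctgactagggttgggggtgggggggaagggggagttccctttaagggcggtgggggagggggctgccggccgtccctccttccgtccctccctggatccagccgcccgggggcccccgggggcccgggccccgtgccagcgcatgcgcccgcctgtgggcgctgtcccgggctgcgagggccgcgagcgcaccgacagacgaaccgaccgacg
Slc3a1: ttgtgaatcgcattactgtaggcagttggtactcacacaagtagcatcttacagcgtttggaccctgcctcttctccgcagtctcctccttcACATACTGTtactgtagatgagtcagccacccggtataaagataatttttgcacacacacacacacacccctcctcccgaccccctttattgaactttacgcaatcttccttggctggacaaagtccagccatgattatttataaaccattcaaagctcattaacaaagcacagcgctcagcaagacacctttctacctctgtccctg
Slc7a11: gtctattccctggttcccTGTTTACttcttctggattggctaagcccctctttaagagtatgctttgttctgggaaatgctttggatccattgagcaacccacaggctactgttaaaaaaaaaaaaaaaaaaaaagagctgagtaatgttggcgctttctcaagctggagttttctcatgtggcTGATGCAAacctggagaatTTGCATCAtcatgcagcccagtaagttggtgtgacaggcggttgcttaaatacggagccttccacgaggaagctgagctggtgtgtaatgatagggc

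Short motifs, 4 in all, were searched on both strands in the 31 members with a listed promoter, 8 of them called members. No match overlapped another within the same promoter window. The C/EBP-ATF response element, searched as TGATGNAA, the kind of site that ATF4 binds with C/EBP partners, was in 3 of the 31 members (Slc1a4, Slc7a7 and Slc7a11) against 3.92% of the 16990 genes with a promoter. None of the 8 called members held it. In Slc7a11 it occurs on both strands, at 66 and 47 bases before the start. The FOXO element, searched as GTAAACA, was in 2 members (Slc36a3 and Slc7a11) against 3.54% of genes, and in 0 of the 8 called members. The core of the glucocorticoid receptor element, searched as ACANNNTGT, was in 3 members (Slc1a2, Slc3a1 and Slc38a11) against 7.00% of genes. Slc3a1 and Slc38a11 are called members, but both are below the dim level and changed in opposite directions, by 0.35 and -0.36. Both calls were lost when some single arrays were left out. In Slc3a1 that match starts 158 bases before the start of the gene. The CLEAR element core, searched as TCACGTGA and known from promoters of lysosomal genes, was in 1 member, Slc36a1, against 1.44% of genes. A match describes letters in a window and says nothing of binding, and the absence of a match covers these letters in this window only.

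Of the 42 transporters, 11 were called, 8 higher and 3 lower in the fasted samples. Slc7a8, Slc3a2, Slc3a1, Slc38a2, Slc36a4, Slc36a2, Slc43a3 and Slc43a2 rose, and Slc1a5, Slc7a10 and Slc38a11 fell. The share called was 26.2% of the members, against 19.2% of all genes. By direction, 8.49% of all genes were called higher and 10.7% lower. Among genes above the dim level, 9 of the 26 members were called, which is 34.6%, and 34.6% of all such genes were called too, so the share of changed transporters did not stand above that of other detected genes. The fed and fasted groups did not overlap in 6 members, 14.3%, against 6.48% of all genes. The median change of the members was 0.091 against -0.0042 for all genes, and the median size of the change, taken without sign, was 0.22 against 0.12. The comparisons of overlap and of size include dim genes. Above the dim level were 26 of the 42 members and 10832 of the 22180 genes. Neither comparison was limited to those, so a stronger response of the transporters cannot be read from them.

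**Figure D1:**
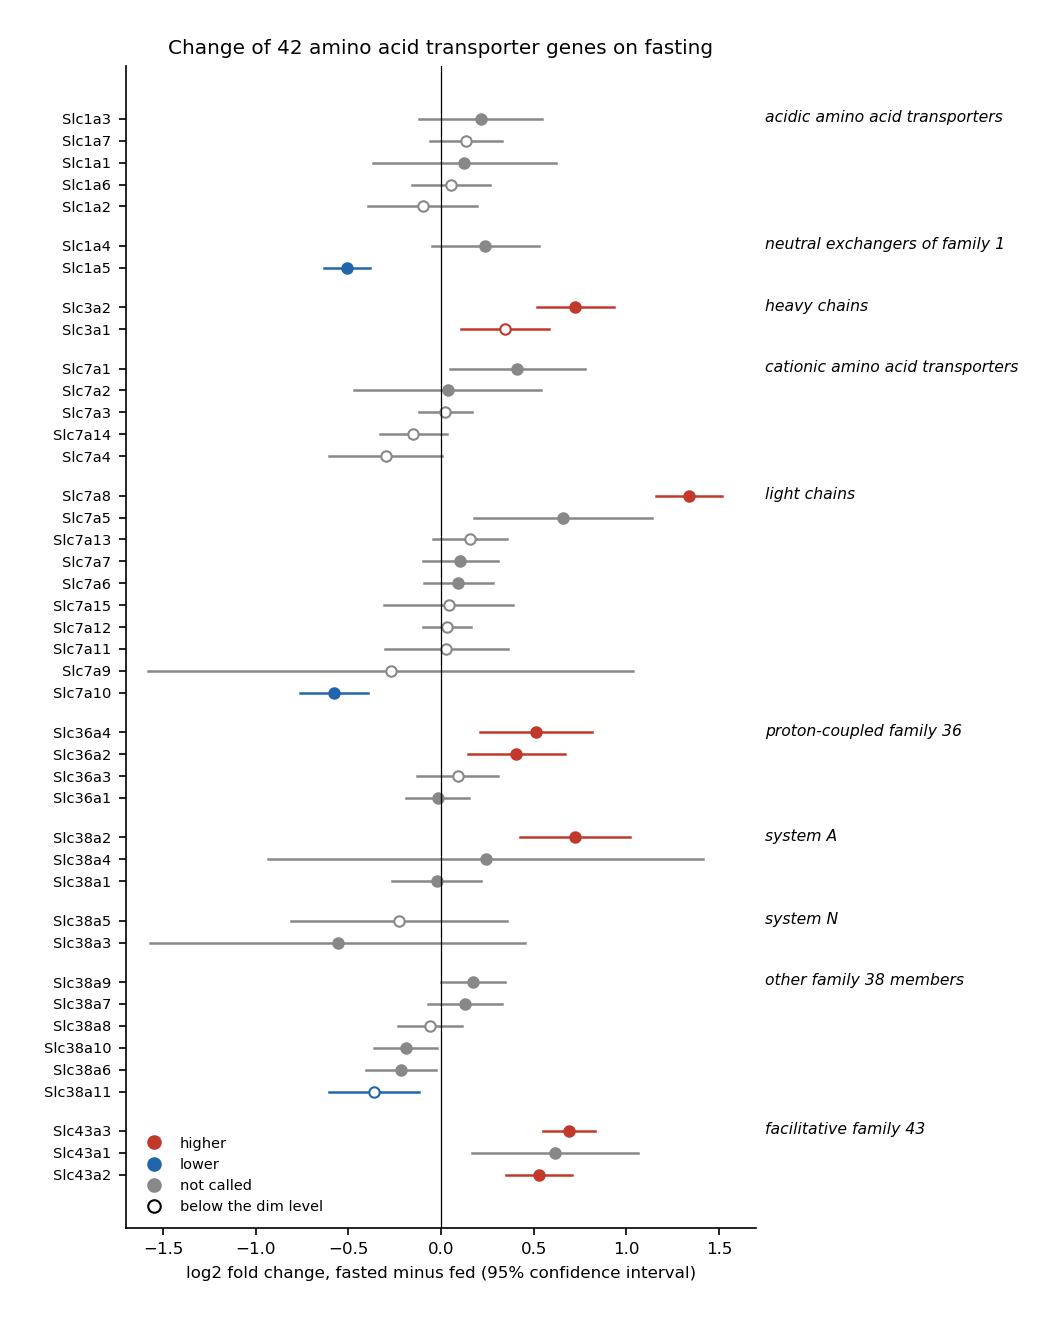
Change of each of the 42 transporter genes, as the fasted minus the fed mean on the log2 scale, with 95% confidence intervals from limma, grouped by role. Red and blue mark the 8 genes called higher and the 3 called lower, and open circles mark the 16 genes below the dim level. Slc7a8 lies farthest to the right at 1.34, and Slc7a9, Slc38a3 and Slc38a4 have the widest intervals.

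All 7 measured adipocyte markers were above the dim level, as were 17 of 18 liver markers, with Alb at 10.54 ± 1.32 (SD, n = 8) fed and 10.58 ± 0.99 (SD, n = 8) fasted, and none of 10 epididymal epithelium markers was. Markers of several cell types were called, and the shares are to be read against the 34.6% of all genes above the dim level. The mean of the adipocyte markers was 11.09 to 11.34 in the fed arrays and 10.72 to 11.05 in the fasted arrays, without overlap, with 3 of 7 called lower (Lep, Plin1 and Retn), 1 higher (Cidec) and Adipoq at -0.12 (limma, adjusted p = 0.284). Lep at -1.93 and Plin1 at -0.84 made most of that shift, the other 5 markers ran from -0.25 to 0.25, and the median of the list was -0.12. Of 8 endothelial markers 3 were called higher and 0 lower, which is 37.5%, and the list means overlapped (8.41 to 8.85 fed, 8.64 to 8.98 fasted). Of 8 macrophage markers 2 were higher (Cd68 and Cd163) and 1 lower (Mrc1), also 37.5%, and the list means overlapped too (8.44 to 8.67 fed, 8.45 to 9.0 fasted). Of 7 smooth muscle or pericyte markers 1 was higher (Acta2) and 2 lower (Rgs5 and Cspg4), of 7 stromal markers 2 were lower (Cd34 and Col3a1), of 6 mesothelial markers 1 was lower (Krt19), and of 8 skeletal muscle markers 1 was higher and 1 lower. In tissue RNA, fewer cells of a type and less of a transcript per cell cannot be told apart, and the part of these shifts in the transporter results was not tested. Markers of liver and of motile cilia were raised in some arrays of both groups. Fed replicates 2 and 3 and fasted replicate 7, chosen with earlier results of these data known, were left out in a separate fit. Fed replicate 4 and fasted replicate 4, with liver means of 7.45 and 7.18, stayed in. In that fit the 6 members without overlap and Slc38a2 kept their calls. The call of Slc36a4 was lost, and Slc43a1 and Slc7a5 were gained.

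Both heavy chains rose. Slc3a2, the heavy chain of CD98 that serves most light chains, had a lowest, median and highest value of 8.88, 9.11 and 9.31 in the fed samples and 9.39, 9.89 and 10.14 in the fasted samples. Every fasted sample lay above every fed sample. The means were 9.11 ± 0.14 (SD, n = 8) and 9.84 ± 0.25 (SD, n = 8), a change of 0.72 (SE 0.099) or 1.65-fold (limma, adjusted p = 2.86e-05). Slc3a1, the heavy chain known from kidney and gut, was near the background of the array in both groups, with 3.27, 3.71 and 3.96 fed and 4.04 as the fasted median between 3.66 and 4.32. Among the fasted samples, 6 of 8 were above the highest fed sample, and the change was 0.35 (SE 0.11; limma, adjusted p = 0.0379). This gene never reached the dim level in 8 arrays, and its call was lost when any of 11 single arrays was left out, with adjusted p between 0.0514 and 0.0791.

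Among the 10 light chains 1 rose, 1 fell and 8 were not called, with a median change of 0.07. Slc7a8, a light chain that exchanges large and small neutral amino acids, had the largest change of all 42 members. Its fed samples ran from 8.50 through a median of 8.88 to 9.11, and its fasted samples from 10.05 through 10.23 to 10.42. The gap between the groups was wider than the range of either one. The means were 8.88 ± 0.19 (SD, n = 8) and 10.22 ± 0.14 (SD, n = 8), a change of 1.34 (SE 0.086) or 2.53-fold (limma, adjusted p = 3.83e-09).

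Slc7a10, the light chain that carries small neutral amino acids such as serine, glycine and alanine and marks the surface of white adipocytes, went the other way. Its values were 9.31, 9.62 and 9.78 (lowest, median, highest) in the fed samples and 8.69, 9.02 and 9.29 in the fasted samples. The highest fasted sample fell just short of the lowest fed one. The means were 9.59 ± 0.15 (SD, n = 8) and 9.01 ± 0.19 (SD, n = 8), so the level fell by 0.58 on the log2 scale (SE 0.087), 1.49-fold lower (limma, adjusted p = 8.3e-05). The adipocyte marker mean was also lower in the fasted arrays, mostly through Lep and Plin1 as given above, and its part in this fall was not tested.

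Slc7a5, the light chain best known for leucine uptake, fell just outside the threshold. Its values were 4.26, 5.02 and 6.18 fed and 5.24, 5.54 and 6.27 fasted, a difference in means of 0.66 (SE 0.23; limma, adjusted p = 0.0506). The fed value of 6.18 belongs to fed replicate 2 and the next fed value was 5.30. Without that array the difference was 0.82 with an adjusted p of 0.00436 in limma, and leaving out fasted replicate 1, 2 or 5 also brought it under the threshold. Only these 4 of the 16 fits without 1 array called it. Over the 29 settings run, 13 called it, with adjusted p in limma from 0.00436 to 0.102.

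The other light chains gave small differences or were dim. Slc7a6, which with its heavy chain exchanges cationic for neutral amino acids, differed by 0.09 (95% interval -0.09 to 0.28), and Slc7a7, which does the same, by 0.10 (-0.10 to 0.31). Slc7a11, the cystine and glutamate exchanger, was dim, with means of 2.77 ± 0.18 (SD, n = 8) fed and 2.80 ± 0.46 (SD, n = 8) fasted. Its fasted replicate 6 stood at 3.75 and the other fasted samples lay between 2.43 and 3.14. Slc7a12, Slc7a13 and Slc7a15 were dim as well, with differences of 0.03, 0.15 and 0.04.

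**Figure D2:**
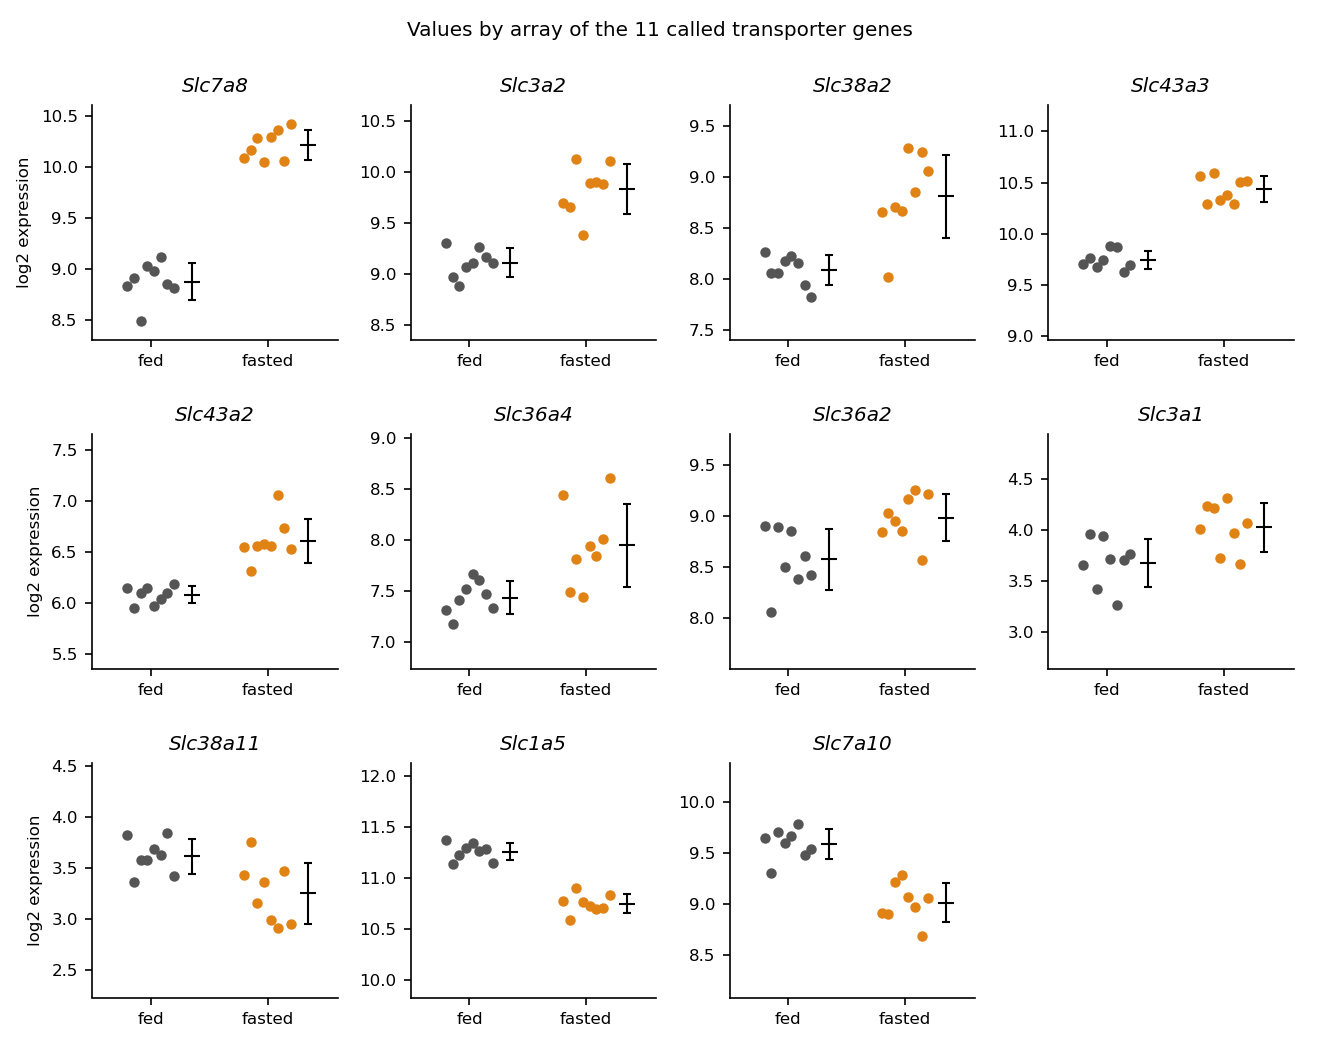
Log2 expression of the 11 called transporter genes in each of the 16 arrays (grey, 8 fed; orange, 8 fasted; bars, mean ± SD). Every panel spans the same number of log2 units but at its own level, so heights are not to be read across panels. The groups are apart in Slc7a8, Slc3a2, Slc43a3, Slc43a2, Slc1a5 and Slc7a10 and share values in the other 5.

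Whether partners moved alike was tested directly, as the difference between the changes of 2 members in the same arrays. The 15 pairs were chosen by partnership or close relation, with earlier results of these data known. Of these, 8 differed in an exact two-sided permutation test over all 12870 divisions of the arrays, with p-values adjusted over the 15 pairs. Against the heavy chain Slc3a2, the light chain Slc7a8 rose by 0.61 more (95% interval 0.44 to 0.79; exact permutation, adjusted p = 0.00117), and all 8 fasted arrays lay past the fed range of the difference. Slc7a10 moved 1.30 below Slc3a2 (difference -1.30, interval -1.58 to -1.02; exact permutation, adjusted p = 0.00117), again in 8 of 8. For both the unadjusted p was 0.000155, the smallest this design allows.

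A further 3 light chains changed less than the heavy chain. The differences were -0.63 for Slc7a6 (interval -0.97 to -0.29; exact permutation, adjusted p = 0.00466) and -0.62 for Slc7a7 (-0.88 to -0.36; exact permutation, adjusted p = 0.00155). For Slc7a11 it was -0.69 (-1.08 to -0.31; exact permutation, adjusted p = 0.00733), where a dim probe set can show little of any change. Slc7a5 differed from Slc3a2 by -0.06, with an interval of -0.62 to 0.49 that still allows sizeable differences in either direction (exact permutation, adjusted p = 0.822). For Slc7a9, the partner of Slc3a1, the interval ran from -2.23 to 0.99 and nothing can be read from it.

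**Figure D3:**
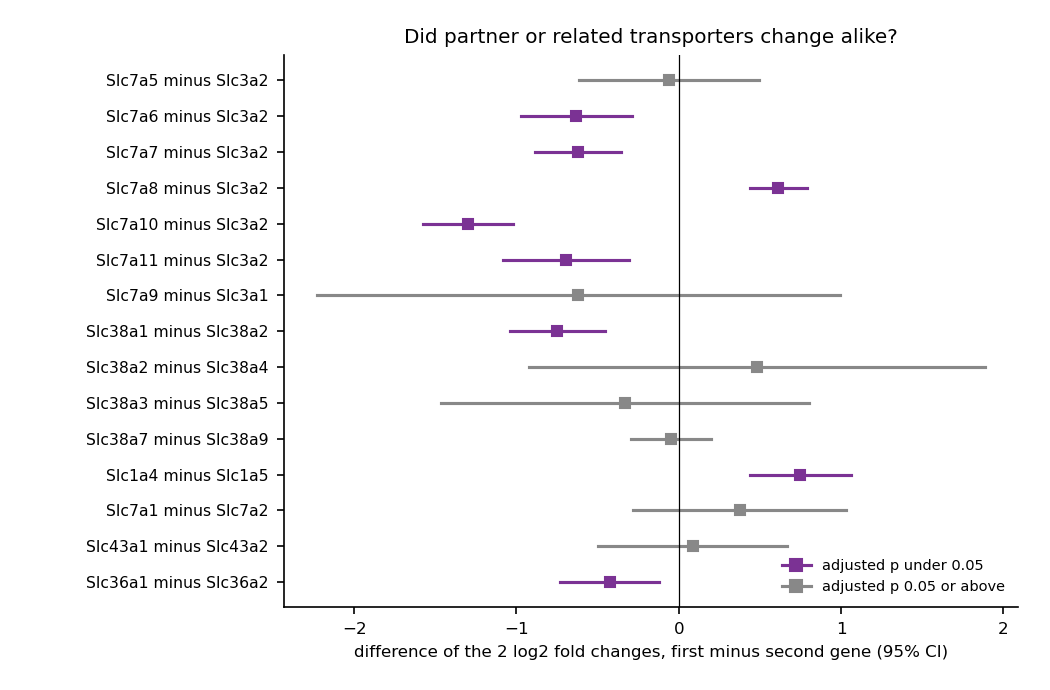
Difference between the fasted-minus-fed changes of 2 related transporters, first minus second, in log2 units with 95% confidence intervals, for 15 pairs. Purple marks the 8 pairs with an adjusted permutation p under 0.05. Slc7a10 minus Slc3a2 lies farthest to the left at -1.30, and Slc1a4 minus Slc1a5 at 0.75 and Slc7a8 minus Slc3a2 at 0.61 lie to the right.

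In family 1 the neutral amino acid exchanger Slc1a5, a main route for glutamine, fell. Its fed samples were 11.14, 11.27 and 11.37 (lowest, median, highest) and its fasted samples 10.59, 10.75 and 10.90. No fasted sample reached the fed range. The means of 11.26 ± 0.08 (SD, n = 8) and 10.75 ± 0.09 (SD, n = 8) give a fall by 0.51 on the log2 scale (SE 0.059), 1.42-fold lower (limma, adjusted p = 4.25e-06). The second probe set of this gene also fell, by 0.60. Its close relative Slc1a4, a carrier of alanine, serine and cysteine, was 4.48 ± 0.22 (SD, n = 8) fed and 4.72 ± 0.36 (SD, n = 8) fasted, a difference of 0.24 that was not called (limma, adjusted p = 0.279). The changes of the 2 genes differed by 0.75 (interval 0.44 to 1.06; exact permutation, adjusted p = 0.00175).

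None of the 5 glutamate and aspartate transporters was called. Slc1a3, the form known from glia, had means of 8.97 ± 0.39 (SD, n = 8) fed and 9.18 ± 0.29 (SD, n = 8) fasted, and Slc1a1 differed by 0.13 (95% interval -0.37 to 0.62). Slc1a2, Slc1a6 and Slc1a7, known from brain and retina, were dim in both groups, with differences between -0.10 and 0.13.

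The 5 cationic members of family 7 were not called either. Slc7a1, the widely expressed arginine and lysine carrier, had 5.20, 5.45 and 5.59 in the fed samples and 5.10, 5.93 and 6.55 in the fasted samples. In the fasted group 5 arrays, from 5.92 to 6.55, lay above the fed range, and fasted replicates 1 and 2, at 5.19 and 5.10, lay just below it. The difference was 0.41 (SE 0.17; limma, adjusted p = 0.114), and it passed the threshold without fasted replicate 1 or without fasted replicate 2, with adjusted p of 0.0383 and 0.0268. None of the other fits without 1 array, of 16 in all, called it. Over the 29 settings run, 3 called it, with adjusted p in limma from 0.0268 to 0.269. Slc7a2, the form known from liver, differed by 0.04 (interval -0.47 to 0.54), and the changes of Slc7a1 and Slc7a2 were not shown to differ (0.38, interval -0.28 to 1.03; exact permutation, adjusted p = 0.393). Slc7a3, Slc7a4 and Slc7a14 were dim, at 0.02, -0.30 and -0.15.

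Of the 4 proton-coupled carriers of family 36, 2 rose. Slc36a2, which takes up glycine, alanine and proline and marks the surface of brown and beige adipocytes, had 8.06, 8.55 and 8.90 in the fed samples and 8.57, 8.98 and 9.25 in the fasted samples. Here 5 of the 8 fasted samples were above every fed sample. The change was 0.41 (SE 0.13) or 1.33-fold (limma, adjusted p = 0.0274), and it missed the threshold when fed replicate 6 or 8 or fasted replicate 5, 6 or 8 was left out (adjusted p of 0.0520 to 0.0578). None of 6 brown or beige markers was called, Ucp1 was at the dim end of the array with 2.85 and 2.94, and the list means were 3.72 to 4.45 fed and 3.68 to 4.24 fasted.

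Slc36a4, a carrier of proline and tryptophan, spread widely after fasting, with 7.18, 7.44 and 7.66 fed and 7.45, 7.89 and 8.61 fasted. Fasted replicates 1 and 8, at 8.45 and 8.61, were the highest and 6 of 8 fasted samples exceeded the fed range. The change was 0.51 (SE 0.14) or 1.43-fold (limma, adjusted p = 0.0154). It rests on 1 of the gene's 2 probe sets, since the other gave 0.20 with an adjusted p of 0.276 in limma. Without fed replicates 2 and 3 and fasted replicate 7 it was 0.46 (limma, adjusted p = 0.0737). Slc36a1, which exports amino acids from lysosomes, had means of 6.20 ± 0.14 (SD, n = 8) and 6.18 ± 0.16 (SD, n = 8), and its change was 0.43 below that of Slc36a2 (difference -0.43, interval -0.73 to -0.12; exact permutation, adjusted p = 0.0181). Slc36a3, known from testis, was dim.

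In family 38 the system A carrier Slc38a2 rose. This sodium-coupled importer of glutamine and alanine had 7.82, 8.11 and 8.27 in the fed samples and 8.02, 8.78 and 9.28 in the fasted samples. All fasted samples but 1 lay above the fed range, 7 of 8, and fasted replicate 2, at 8.02, lay inside the fed range. The means were 8.09 ± 0.15 (SD, n = 8) and 8.81 ± 0.41 (SD, n = 8), a change of 0.72 (SE 0.14) or 1.65-fold (limma, adjusted p = 0.000986). Slc38a1, the other widely expressed system A carrier, was not called (limma, adjusted p = 0.933), with 5.97 ± 0.17 (SD, n = 8) fed and 5.94 ± 0.29 (SD, n = 8) fasted, and its change lay 0.75 below that of Slc38a2 (difference -0.75, interval -1.04 to -0.46; exact permutation, adjusted p = 0.00186).

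Slc38a7 and Slc38a9 were not called. Slc38a9, which senses arginine in the lysosome for mTORC1, was 6.81 ± 0.17 (SD, n = 8) fed and 6.98 ± 0.15 (SD, n = 8) fasted (limma, adjusted p = 0.165), and Slc38a7, which exports glutamine from lysosomes, differed by 0.13 (limma, adjusted p = 0.436). Slc38a6 was lower by 0.22 and Slc38a10 by 0.19 without passing the test (limma, adjusted p of 0.108 and 0.123), and both probe sets of Slc38a10 gave a negative value (-0.19 and -0.18). Slc38a11, a little-studied member, fell by 0.36 on the log2 scale (SE 0.12; limma, adjusted p = 0.0342) at values under the dim level, with 3.36, 3.60 and 3.85 fed and 2.92, 3.26 and 3.76 fasted. Only 4 of its 8 fasted samples were below the fed range, and leaving out any of 8 single arrays ended the call (adjusted p of 0.0539 to 0.0724).

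The widest spreads within groups were in Slc38a3, Slc38a4 and Slc7a9. Slc38a3, a system N glutamine carrier known from liver, was 7.77, 7.80 and 6.85 in fed replicates 2, 3 and 4 and between 4.58 and 5.53 in the other fed arrays, and its fasted values ran from 4.49 to 6.67. Slc38a4, a system A carrier also known from liver, was 7.40, 7.30 and 6.43 in the same 3 fed arrays and 3.72 to 5.19 in the other fed arrays. Its fasted values ran from 4.24 to 6.88, with the highest, 6.88 and 6.68, in fasted replicates 7 and 4, where the liver mean was 7.04 and 7.18. In the 3 fed arrays the mean of the 18 measured liver markers was 7.61, 7.81 and 7.45, against 4.68 to 6.24 in the other fed arrays and 4.83 to 7.18 in the fasted arrays. None of the 18 liver markers was called.

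The group differences were -0.56 (SE 0.48) for Slc38a3 and 0.24 (SE 0.56) for Slc38a4, neither of them called. With the liver marker mean as a covariate the difference of Slc38a3 was -0.55 and passed the test (limma, adjusted p = 0.0134), which no other setting gave. Slc7a2 was highest in the same fed arrays, at 5.56, 5.56 and 5.06, and in fasted replicates 4 and 7, at 5.34 and 5.70.

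Slc7a9, the light chain of kidney and gut, had its own pattern, at 7.02 in fed replicate 2, 4.95 in fed replicate 6, 6.08 in fasted replicate 7 and 3.84 in fasted replicate 4, and 2.50 to 2.97 in the other 12 arrays. The mean of 14 motile cilia markers was 5.47, 3.51, 4.91 and 3.44 in those 4 arrays and 2.64 to 2.85 in the others. Slc38a5, another system N carrier, was highest in fasted replicate 7 (4.58), fed replicate 2 (4.45) and fed replicate 6 (4.27). The part of other tissue in these values was not tested.

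**Figure D4:**
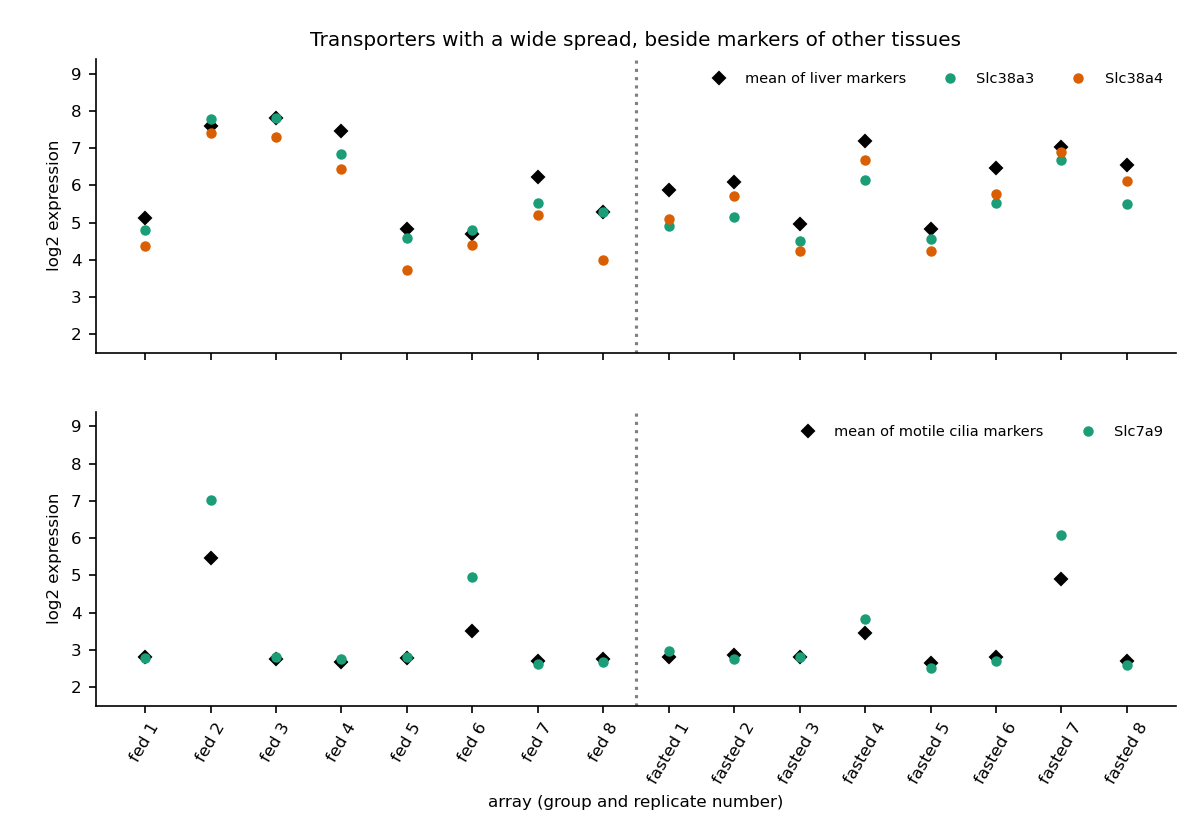
Log2 expression in each of the 16 arrays of Slc38a3 and Slc38a4 beside the mean of the liver markers (upper panel) and of Slc7a9 beside the mean of the motile cilia markers (lower panel); the dotted line parts fed from fasted arrays. Slc38a3 and Slc38a4 are high in fed replicates 2, 3 and 4, where the liver mean is 7.61, 7.81 and 7.45, and also in fasted replicates 4 and 7, where it is 7.18 and 7.04, and Slc7a9 is high in fed replicates 2 and 6 and fasted replicates 4 and 7, where the cilia mean is 3.44 to 5.47.

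Family 43 rose in 2 of its 3 members, and its median change of 0.61 was the highest of the 6 families. Slc43a3, placed in the family by sequence and known to carry purine bases rather than amino acids, had 9.62, 9.72 and 9.88 in the fed samples and 10.29, 10.44 and 10.60 in the fasted samples, without overlap. The means were 9.74 ± 0.09 (SD, n = 8) and 10.43 ± 0.13 (SD, n = 8), a change of 0.69 (SE 0.066) or 1.61-fold (limma, adjusted p = 4.37e-07). Slc43a2, a facilitative carrier of large neutral amino acids, had 5.95, 6.10 and 6.19 fed and 6.32, 6.56 and 7.06 fasted. These groups were apart too, and the change was 0.53 (SE 0.084) or 1.44-fold (limma, adjusted p = 0.000139).

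Slc43a1, a carrier of the same substrates, had 6.54, 6.79 and 7.66 fed and 6.45, 7.46 and 8.24 fasted. Its difference of 0.61 (SE 0.21) was close in size to the others but missed the threshold (limma, adjusted p = 0.0505), with fed replicate 3 at the top of its group and fasted replicate 4 at the bottom. Leaving out fed replicate 3 gave an adjusted p of 0.0163, and leaving out fasted replicate 4 gave 0.00465. Of the 16 fits without 1 array, only 3 called it. Over the 29 settings run, 10 called it, with adjusted p in limma from 0.00465 to 0.104. The changes of Slc43a1 and Slc43a2 were not shown to differ (0.09, interval -0.50 to 0.67; exact permutation, adjusted p = 0.808).

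In the RefSeq gene order some members are neighbours, 3 in a row at each of 2 places, and in each row 1 of the 3 was called. On chromosome 11 the order is Slc36a3, Slc36a2 and Slc36a1 with no coding gene between them, with Slc36a2 called at 0.41 and the others at 0.09 and -0.02. On chromosome 15 the order is Slc38a1, Slc38a2 and Slc38a4, with Slc38a2 called at 0.72 and the others at -0.02 and 0.24. The changes of Slc38a2 and Slc38a4 were not shown to differ (0.48, interval -0.93 to 1.89; exact permutation, adjusted p = 0.642). Slc43a1 and Slc43a3 are separated by 1 coding gene on chromosome 2, and Slc7a10 and Slc7a9 by 6 on chromosome 7.

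Of 34 measured amino acid and peptide carriers outside these families, 2 were higher and 2 lower, with a median change of 0.03. The share called was 11.8%, against 19.2% of all genes, and above the dim level 3 of 14 were called, 21.4% against 34.6%. The taurine transporter Slc6a6 rose by 0.95 (limma, adjusted p = 7.23e-06), with 7.79 to 8.48 fed and 8.64 to 9.47 fasted. Slc6a13, a carrier of GABA and taurine, fell by 1.31 on the log2 scale (limma, adjusted p = 2.18e-06). Slc25a44, the mitochondrial carrier of branched-chain amino acids, fell by 0.30 (limma, adjusted p = 0.0346). Slc6a12, a betaine and GABA carrier, rose by 0.26 (limma, adjusted p = 0.0472) below the dim level, with means of 3.99 fed and 4.24 fasted.

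Lists of genes that read amino acid supply held calls in both directions, at shares near those of all genes above the dim level. Of 39 measured genes of amino acid sensing by mTORC1, 6 were higher and 8 lower, with a median change of -0.01. Above the dim level 14 of 35 were called, 40.0% against 34.6% of all such genes. The largest changes among them were Sesn2 at 1.72 (limma, adjusted p = 1.56e-07), Sesn3 at -0.89 (limma, adjusted p = 9.5e-06) and Mitf at 0.87 (limma, adjusted p = 8.85e-07). With smaller changes, Flcn, which acts on the Rag GTPases at the lysosome, rose by 0.63 (limma, adjusted p = 2.78e-05), and Lamtor1, the anchor of the Ragulator complex, fell by 0.65 (limma, adjusted p = 1.04e-06). Of 32 measured genes of the GCN2 and ATF4 response, which answers amino acid lack, 7 were higher and 5 lower, with a median change of 0.06. All 32 were above the dim level, and 37.5% were called against the same 34.6%. The largest changes in this list were Chac1 at 1.88 and Psph at -1.71 (limma, adjusted p = 2.18e-09 for both) and Psat1 at -1.18 (limma, adjusted p = 1.28e-07). With smaller changes, Asns, asparagine synthetase, rose by 0.63 (limma, adjusted p = 0.000891), Trib3, a pseudokinase of the response, rose by 0.98 (limma, adjusted p = 0.00011), and Phgdh, the first enzyme of serine synthesis, fell by 0.82 (limma, adjusted p = 1.36e-05).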

How the data were processed

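Total RNA from 16 samples was hybridised to Affymetrix arrays, 1 array a sample. The deposited log2 values were made by the authors with RMA, per the submitters' processing notes; its version is not given in the sources used here. That the scale is log2 follows from RMA and from the range of the values, 0.99 to 13.2, with array medians of 3.60 to 3.69 and correlations between arrays of 0.966 to 0.993. RMA shares 1 distribution between arrays, so changes are relative to other transcripts, and changes of dim probe sets are compressed. The number of arrays limits the precision, and no batch was given to model.

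Of 41345 probe sets, 23521 had 1 symbol in the platform annotation, 1814 several and 16010 none. The probe set with the highest mean stood for a gene, which gave 22180 genes, and 4 of the 42 members had a second probe set. All 42 symbols matched RefSeq. Changes were fitted with limma 3.58.1 (lmFit, eBayes) in R 4.3.3 over all genes, fed and fasted as the only term, after a check on simulated data. Every member is named. Pairs were tested by exact permutation in Python 3.11.15, with intervals from the difference's standard error. Replicate numbers were not used to pair the samples in the main fit. Of 8 same-numbered pairs, 2 correlated over 0.1 (range -0.216 to 0.218), which does not settle whether the numbers pair them. The members, gene lists, pairs and arrays left out were chosen with earlier results of these data known. Alternatives were other normalizations, filters on dim genes, variance models, array weights, covariates, the other probe set, a stricter threshold, a replicate block and arrays left out.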

Additional observations from a re-analysis of the deposited data

Results flagged for a closer look

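In 5 of the 84 groups of 8 samples, 1 sample lay far from the others by Dixon's test, and chance flags about 1 in 20 groups. Slc43a1, a carrier of large neutral amino acids, was 7.66 in fed replicate 3 with the next fed sample at 7.05, which bears on its missed call. Slc7a9, the light chain of kidney and gut, was 6.08 in fasted replicate 7 with the next fasted sample at 3.84; the motile cilia marker mean was 4.91 in that array. Slc7a15, a light chain, was 4.23 in fed replicate 2, the array with the highest cilia mean, with the next fed sample at 3.40. Slc36a3 was 3.14 in fed replicate 3, next 2.62, and Slc38a8 was 3.24 in fed replicate 1, next 2.95. These 2 genes are dim in both groups, as are Slc7a9 and Slc7a15 in most arrays, and no group difference was called for any of the 5.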

How the results depend on the processing

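Slc7a8, Slc43a3, Slc1a5, Slc3a2, Slc7a10, Slc43a2 and Slc38a2 kept their calls and directions under all 29 settings run, 16 of which left out 1 array each. At an adjusted p under 0.01 there were 2766 genes called (1214 higher, 1552 lower) and 7 members (5 higher). With 1 array left out, 8 to 13 members were called (6 to 9 higher, 2 to 4 lower) among 3823 to 4265 genes. The calls of Slc3a1, Slc38a11, Slc36a2 and Slc36a4 were lost and those of Slc7a5, Slc43a1, Slc7a1, Slc38a6 and Slc38a3 gained in some settings; the cause was not tested. The filters on dim genes, with 11090 or 10832 genes tested, left Slc3a1 and Slc38a11 untested and added Slc43a1 and Slc7a5 (limma, adjusted p of 0.0268 to 0.0280). Subtracting array medians turned the split of all calls from 1883 higher and 2368 lower to 2086 and 1731, with 12 members called. With the replicate block, 9 members and 3829 genes were called, Slc36a2 at 0.0562 and Slc3a1 at 0.0616. The pairs were run under 21 alternatives, namely cyclic loess, the other probe set, a rank sum test, arrays left out and the block, and 8 were called in each but the replicate block, which gave 6, with Slc7a11 minus Slc3a2 at 0.0586 and Slc36a1 minus Slc36a2 at 0.0502 (exact sign-flip test). No called change reversed its direction. Signal over background limits the 16 dim members, for which a change may be compressed, and the absence of a call in them does not show that they did not change.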
